A study of Mus musculus with 12 samples.

Results

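The genes described here are 35 members of DNA damage signalling and repair, out of 770 genes on the NanoString Mouse PanCancer Pathways panel, in 12 samples of a murine liver cancer cell line in which *Dusp4* was silenced. They were taken by name from the complete data table, and all 35 were found there. By repair route they comprised 8 genes of the Fanconi core complex and its ubiquitination step, 6 of homologous recombination, 6 of damage signalling, 4 of mismatch and base excision repair, 5 of nucleotide excision repair, 3 of end joining and 3 of direct reversal of alkylation. AKT/NRAS cells came from a mouse hepatocellular carcinoma that grew after plasmids for NRAS G12V and a floxed (AKT flox/flox), myristoylated AKT were delivered by hydrodynamic injection, and AKT Cre/NRAS cells are the same line after transfected Cre had removed AKT. Both lines keep the NRAS oncogene. Each was transfected in DMEM with a siRNA pool against *Dusp4* (siRNA) or a negative control pool (SCR), which gave 4 groups of 3 biological replicates. The lines were measured as 1 parent and 1 derivative, and whether the derivative is a clone is not given in the sources used here, so loss of AKT and any other change made during its derivation cannot be told apart. In lysates of whole cultures, fewer cells with a transcript and less transcript per cell cannot be told apart either.

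DNA repair runs along separate routes that meet at a few signalling kinases. At a stalled fork or an interstrand crosslink, the Fanconi core complex and its ligase subunit FANCL, with the conjugating enzyme UBE2T, attach ubiquitin to the FANCD2 and FANCI pair, and homologous recombination with BRCA1 and BRCA2 completes the repair. ATM and ATR signal breaks and stalled forks to CHEK2 and CHEK1, and MDC1 binds phosphorylated H2AX beside a break. End joining, mismatch repair, excision repair and direct reversal deal with double-strand breaks, mispaired bases, damaged bases or bulky adducts, and alkylated bases. In liver, these routes meet DNA adducts made by metabolism, and many of the recombination and checkpoint genes are known to be transcribed mainly in dividing cells.

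Promoter sequence is shown for 5 members on which the comparisons turn: *Mgmt*, at the floor in one line only, *Fancg* and *Brca2*, lower in AKT Cre/NRAS, *Ube2t*, higher there, and *Mdc1*, higher after siRNA in that line. RefSeq windows (GRCm38.p6) of 250 bases before to 50 after the start site were found for 28 of the 35 members, and the 250 bases before the start are printed, 5′ to 3′ on the strand of the gene. Capitals mark TTTCCCGC, an E2F core, in *Mdc1*, *Fancg* and *Brca2* (in *Brca2* as its reverse complement), CCAAT in *Ube2t*, and each CG pair in *Mgmt*, for which RefSeq lists 2 windows and the first is shown.
Mdc1, chr17:35841248-35841497, plus strand: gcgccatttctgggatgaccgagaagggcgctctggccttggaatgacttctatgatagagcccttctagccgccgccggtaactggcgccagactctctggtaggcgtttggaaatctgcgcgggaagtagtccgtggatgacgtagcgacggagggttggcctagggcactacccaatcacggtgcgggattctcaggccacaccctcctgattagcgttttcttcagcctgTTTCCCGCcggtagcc
Fancg, chr4:43010302-43010551, minus strand: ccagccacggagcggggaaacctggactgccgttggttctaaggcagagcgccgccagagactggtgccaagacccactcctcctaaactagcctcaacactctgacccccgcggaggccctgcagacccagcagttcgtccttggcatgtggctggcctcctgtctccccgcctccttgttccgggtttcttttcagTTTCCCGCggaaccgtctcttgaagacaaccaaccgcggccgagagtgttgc
Brca2, chr5:150522371-150522620, plus strand: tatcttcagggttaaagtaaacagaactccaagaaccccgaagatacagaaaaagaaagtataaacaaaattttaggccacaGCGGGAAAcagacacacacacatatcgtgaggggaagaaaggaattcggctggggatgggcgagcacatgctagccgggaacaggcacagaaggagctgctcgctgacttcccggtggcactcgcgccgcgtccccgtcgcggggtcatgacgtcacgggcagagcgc
Ube2t, chr1:134962315-134962564, plus strand: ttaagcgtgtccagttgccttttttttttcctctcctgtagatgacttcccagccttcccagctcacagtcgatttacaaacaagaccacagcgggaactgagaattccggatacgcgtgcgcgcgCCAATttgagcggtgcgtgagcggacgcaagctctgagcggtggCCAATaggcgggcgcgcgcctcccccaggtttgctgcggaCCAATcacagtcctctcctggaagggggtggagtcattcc
Mgmt, chr7:136894336-136894585, plus strand: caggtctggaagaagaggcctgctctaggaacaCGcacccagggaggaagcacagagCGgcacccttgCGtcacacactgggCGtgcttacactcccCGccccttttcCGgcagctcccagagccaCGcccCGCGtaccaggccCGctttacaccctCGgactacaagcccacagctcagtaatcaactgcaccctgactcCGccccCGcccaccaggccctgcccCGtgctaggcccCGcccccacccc
Searched on both strands, TTTCCCGC was present in 5 of the 28 members with a window (*Fancg*, *Brca2*, *Mdc1*, *Chek2* and *Msh6*) and in 1.07% of all 32851 windows. A member was counted if any of its windows matched, while the share over all windows counts each window. CCAAT was present in 16 of 28 members and in 37.4% of all windows, with 3 matches in *Ube2t*. TTTGGCGC, another E2F core, and TTTGAA, the CHR element, were in 0 of the 28 members, against 0.514% and 17.9% of all windows. Of the 5 genes with TTTCCCGC, *Fancg*, *Brca2*, *Mdc1* and *Msh6* were lower in AKT Cre/NRAS under SCR and *Chek2* did not pass, beside 48.0% of all genes tested. The *Brca2* sign turned with the values as deposited, and *Mdc1* did not pass between the lines under siRNA. After siRNA in AKT Cre/NRAS *Mdc1* and *Msh6* were higher, beside 40.6% of all genes tested. The *Msh6* call passed in 1 of 6 fits with a sample left out. The *Mgmt* stretch held 15 CG pairs, a number reached by 27.3% of all windows over the same 250 bases. Neither methylation nor factor binding was measured, and a match of letters is a description only.

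Values are normalised counts, that is barcode counts scaled to positive controls by the authors and here to 15 reference genes. Scaled values under a common floor of 27.1 were raised to it, so levels below 27.1 are not told apart on this scale. Recovered counts above the floor summed to between 641790 and 1081646 per sample. Of the members, 29 were above the floor in all 12 samples. *Mutyh*, a glycosylase of base excision repair, was at the floor in all 12 and was not tested on this scale. By quantiles it was tested, and it passed between the lines under siRNA. *Dusp4* was lower after siRNA by a log2 fold change of -1.73 in AKT/NRAS and -0.45 in AKT Cre/NRAS (adjusted p = 1.13e-06 and 0.0178), where it still measured 3769 to 4174. Over 7 ways of scaling the samples, the fall passed in all 7 in AKT/NRAS and in 4 in AKT Cre/NRAS. In AKT Cre/NRAS the log2 fold change ran from -0.81 to 0.00098 over these scalings. The *Akt1* probe measured 18170 to 20228 in AKT/NRAS and 337 to 587 in AKT Cre/NRAS. The 3 AKT Cre/NRAS SCR libraries stood apart: *Rpl19* exceeded *Polr2a* by 5.48, 6.36 and 6.88 on the log2 scale there. The same ratio was 4.72 to 5.03 in AKT Cre/NRAS siRNA and 3.81 to 3.92 in both AKT/NRAS groups. *Rpl19* is itself among the 15 reference genes, and *Polr2a* is not. Of the hepatocyte markers, *Ghr* was measured in both lines (log2 fold change 3.64 under SCR) and *Igf1* was at the floor. *Sox9* and *Spp1* were measured in both lines and *Prom1* in AKT Cre/NRAS, while the endothelial *Kdr*, the immune *Csf1r*, *Flt3* and *Il2ra* and the fibroblast *Pdgfrb*, *Col1a2* and *Col3a1* were at the floor throughout, and *Flt1*, *Cd14*, *Pdgfra* and *Col1a1* of the same lists were not. Summed levels were 15348 to 19933 in AKT/NRAS and 101972 to 161827 in AKT Cre/NRAS for the list of progenitor or biliary markers, with *Spp1* at a log2 fold change of 3.20 under SCR. *Spp1* made up nearly all of these sums. Mean *Sox9* was 426 in AKT/NRAS and 369 in AKT Cre/NRAS under SCR, and 359 and 564 under siRNA. The sums were 959.8 to 1429.6 in AKT/NRAS and 266 to 522 in AKT Cre/NRAS for the endothelial list, and 142 to 186 and 349.9 to 594 for the fibroblast list. In the endothelial list only *Flt1* was above the floor. The part of these markers in the results between the lines was not tested.

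The largest differences among the repair genes lay between the lines. Under SCR, AKT Cre/NRAS cells had higher *Mgmt*, *Ube2t*, *Fancl* and *Chek1* and lower *Fancg*, *Prkdc*, *Brca1* and *Lig4* than AKT/NRAS cells, and the same 8 genes differed in the same directions under siRNA. Of 34 members tested under SCR, 9 were higher and 17 lower at an adjusted p under 0.05, beside 28.9% and 48.0% (76.9% together) of all 515 genes tested. Under siRNA, 8 were higher and 13 lower of 34, beside 36.6% and 37.9% (74.5% together) of 522 genes. The groups did not overlap for 25 members under SCR (9 higher, 16 lower) and for 23 under siRNA (10 higher, 13 lower), beside 79.8% of the panel (30.7% higher, 49.1% lower) and 76.6% (37.9% higher, 38.7% lower). The members past the threshold, 76.5% of those tested under SCR and 61.8% under siRNA, were close to the panel's share under SCR and below it under siRNA, where 23.5% were higher. Their median log2 fold change was -0.25 under SCR and -0.074 under siRNA, against -0.22 and -0.00053 for all genes tested. These comparisons have no sample in common, and 7 members were higher both times and 12 lower both times, 0 passed in opposite directions, and the sign was the same in 26 of 34 (20.6%, 35.3% and 76.5% for the first, second and last). Of the 512 panel genes tested in both, 26.2% were higher both times, 36.1% lower both times and 1.76% past in opposite directions, and 82.8% had the same sign, so the members' shares lay below those of the panel, a difference that was not tested.

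**Figure D1:**
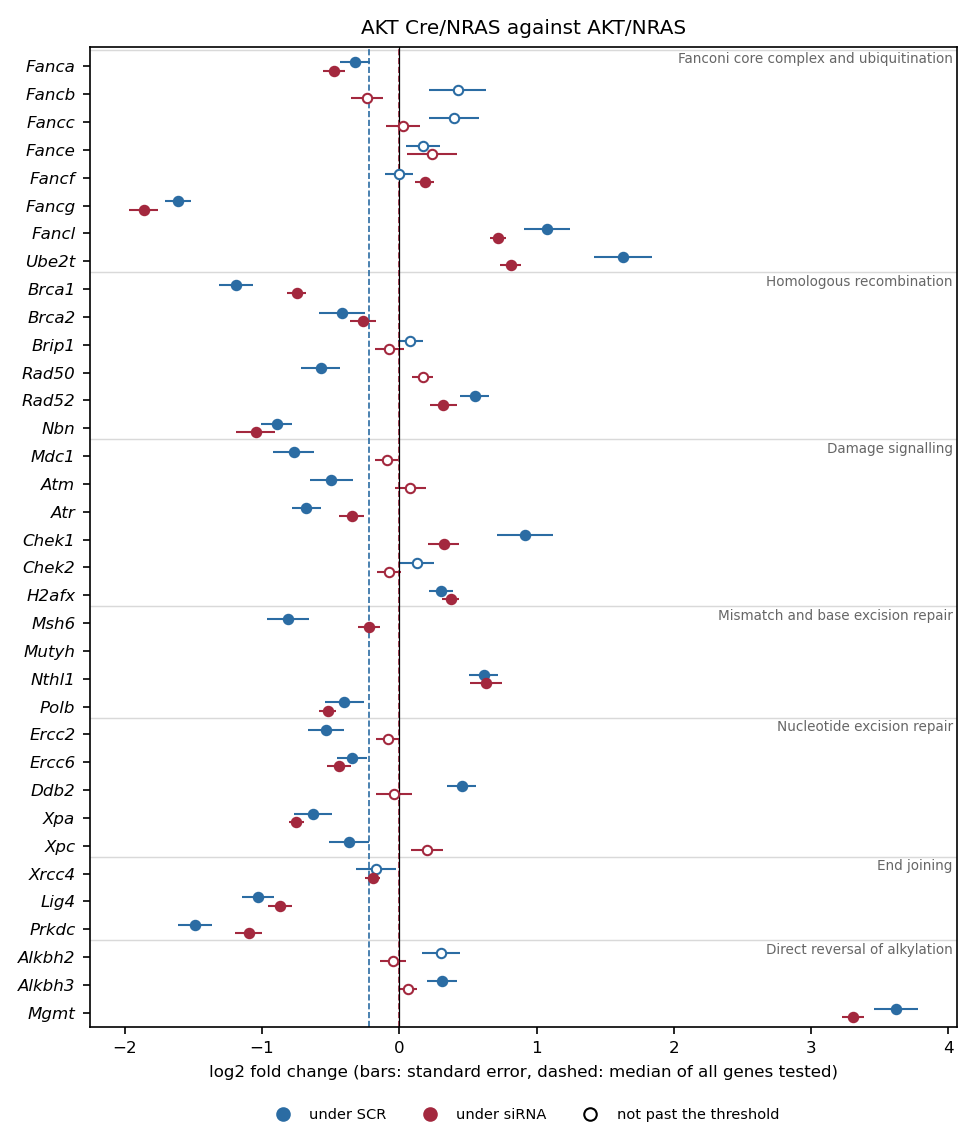
Log2 fold change of each member in AKT Cre/NRAS against AKT/NRAS (x axis), under SCR in blue and under siRNA in red, by repair route, with standard errors of the limma fit on 3 samples a group. Filled points passed an adjusted p of 0.05 and dashed lines mark the median of all genes tested. Mgmt lies farthest to the right (3.62 and 3.30) and Fancg farthest to the left (-1.61 and -1.86).

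Direct reversal held the sharpest contrast. *Mgmt*, the methyltransferase that takes a methyl group off O6-methylguanine, was at the floor in all 6 AKT/NRAS samples. In AKT Cre/NRAS it measured 270.3, 358 and 419 under SCR and 256, 270.4 and 304 under siRNA. Every AKT Cre/NRAS sample was thus above the floor at which every AKT/NRAS sample lay. The level was at least 12.7-fold higher under SCR and at least 10.2-fold higher under siRNA, taking the floor for AKT/NRAS, and the bound ranged from 9.24 to 20.4 over 7 scalings under SCR (limma, adjusted p = 1.74e-07 and 3.24e-08). *Alkbh2* and *Alkbh3*, dioxygenases that reverse other alkyl lesions, ranged over 166 to 250 and 163 to 239 normalised counts in the 12 samples. *Alkbh3* passed under SCR, higher by 0.31 ± 0.11 (SE), adjusted p = 0.0275, with a sign that turned to -0.11 when 5 reference genes set the scale, and did not pass under siRNA (0.064). *Alkbh2* did not pass in either comparison (log2 fold changes 0.30 and -0.045).

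Genes of the Fanconi route moved in opposite directions. *Fancg*, a subunit of the core complex, measured 104, 111 and 99.8 in AKT/NRAS SCR and 150.1, 121 and 124 in AKT/NRAS siRNA. In AKT Cre/NRAS it was 35.8, 33.1 and 32.3 under SCR and 35.7, 32.6 and 38.0 under siRNA, just above the floor. The groups did not overlap, and the log2 fold change was -1.61 ± 0.10 (SE), adjusted p = 1.09e-06 under SCR and -1.86 ± 0.10 (SE), adjusted p = 2.41e-06 under siRNA. *Fanca*, another core subunit, was low everywhere: 29.9, 33.6 and 39.4 in AKT/NRAS SCR, 39.6, 33.6 and 41.2 in AKT/NRAS siRNA and at the floor in all 6 AKT Cre/NRAS samples. It was at least 1.26-fold lower there under SCR and at least 1.40-fold lower under siRNA (adjusted p = 0.024 and 0.00116), bounds set by how close the gene lay to the floor.

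The ubiquitination step went the other way. *Ube2t*, the conjugating enzyme, measured 88.9, 84.6 and 85.9 in AKT/NRAS SCR and 111, 101 and 102 in AKT/NRAS siRNA. In AKT Cre/NRAS it measured 212, 235 and 392 under SCR and 187, 192 and 173 under siRNA. All AKT Cre/NRAS samples were above all AKT/NRAS samples, with replicate 3 under SCR far above the rest of its group, and the log2 fold change was 1.63 ± 0.21 (SE), adjusted p = 0.000133 under SCR and 0.81 ± 0.076 (SE), adjusted p = 4.09e-05 under siRNA. *Fancl*, the ligase subunit, ranged from 220 to 267 in AKT/NRAS and from 376 to 641 in AKT Cre/NRAS, a log2 fold change of 1.08 ± 0.17 (SE), adjusted p = 0.000391 under SCR and 0.72 ± 0.058 (SE), adjusted p = 1.73e-05 under siRNA. The ratio of *Fancl* to *Fancg* within a library, on which the scaling has no bearing, was 0.66 to 1.26 (log2) in the 6 AKT/NRAS libraries and 3.42 to 4.31 in the 6 AKT Cre/NRAS libraries. *Fancf*, an adaptor of the core complex, passed under siRNA (0.19, adjusted p = 0.0459) and not under SCR (adjusted p = 0.997). *Fancb*, *Fancc* and *Fance*, other core subunits at 27.1 to 65.8 normalised counts, did not pass in either comparison.

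**Figure D2:**
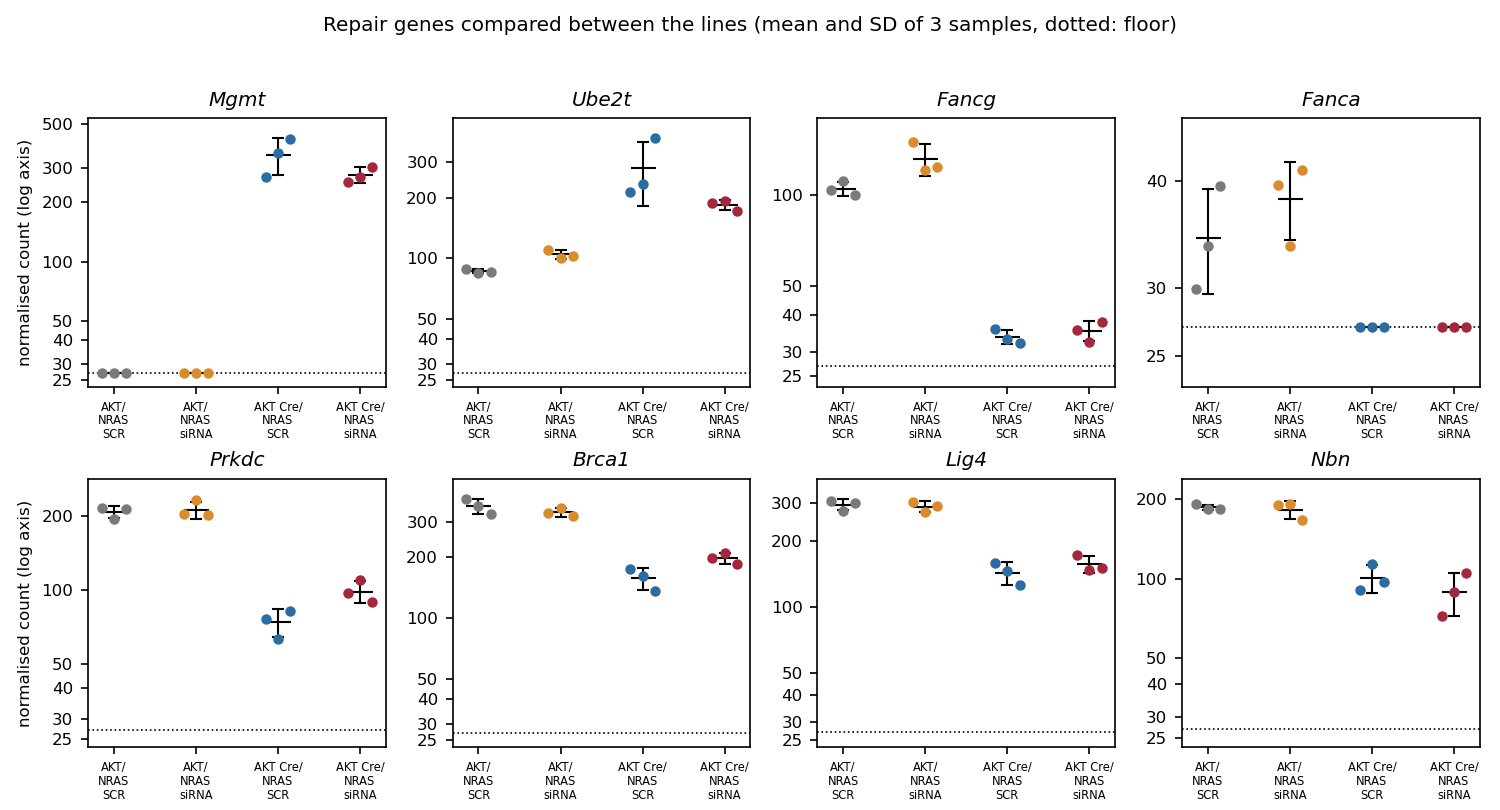
Normalised counts (log axis) of 8 members in the 4 groups, 1 point a sample, with the mean and SD of 3 samples and the floor of 27.1 as a dotted line. Mgmt leaves the floor only in AKT Cre/NRAS, Ube2t is higher there, and Fancg, Fanca, Prkdc, Brca1, Lig4 and Nbn are lower there under both treatments.

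Among homologous recombination genes, 4 of 6 were lower in AKT Cre/NRAS under SCR and 3 of 6 under siRNA, and *Rad52* was higher both times. The panel's shares on the lower side were 48.0% under SCR and 37.9% under siRNA. *Brca1*, which commits breaks to recombination, measured 389, 358 and 328 in AKT/NRAS SCR and 332, 350.2 and 319 in AKT/NRAS siRNA. The AKT Cre/NRAS values were 174, 162 and 136 under SCR and 199, 210.2 and 186 under siRNA. The lines did not overlap under either treatment, and the log2 fold change was -1.19 ± 0.12 (SE), adjusted p = 3.10e-05 under SCR and -0.75 ± 0.071 (SE), adjusted p = 4.21e-05 under siRNA. *Nbn*, the subunit of the MRE11 complex that recruits ATM, measured 191, 184 and 183 in AKT/NRAS SCR and 189.6, 192 and 166 in AKT/NRAS siRNA. In AKT Cre/NRAS it was 90.4, 114 and 97.0 under SCR and 72.5, 88.8 and 105 under siRNA. Every AKT Cre/NRAS sample lay below every AKT/NRAS sample (log2 fold change -0.89, adjusted p = 0.000117, and -1.05, adjusted p = 0.000307). *Rad50*, its partner in the same complex, was lower under SCR (-0.57) and did not pass under siRNA (0.17, adjusted p = 0.0846).

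*Brca2*, which acts in strand invasion, was lower, with a log2 fold change of -0.42 ± 0.17 (SE), adjusted p = 0.0474 under SCR and -0.26 ± 0.092 (SE), adjusted p = 0.0337 under siRNA, at 54.6 to 112 normalised counts. The SCR value turned to 0.081 with the values as deposited. *Rad52*, a single-strand annealing factor, was higher by 0.55 and 0.32 (adjusted p = 0.00135 and 0.0207). *Brip1*, a helicase partner of BRCA1, was at the floor in 8 of 12 samples and did not pass.

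End joining was lower in AKT Cre/NRAS in all of its 3 members under siRNA and in 2 of 3 under SCR, beside 37.9% and 48.0% of the panel. *Prkdc*, the catalytic subunit of the DNA-dependent protein kinase, measured 216, 195 and 215 in AKT/NRAS SCR, 204, 232 and 202 in AKT/NRAS siRNA, 76.3, 63.6 and 82.5 in AKT Cre/NRAS SCR and 97.1, 109.5 and 89.7 in AKT Cre/NRAS siRNA. Its log2 fold change was -1.49 ± 0.12 (SE), adjusted p = 8.44e-06 under SCR and -1.10 ± 0.10 (SE), adjusted p = 3.31e-05 under siRNA. *Lig4*, the ligase that seals the ends, measured 306, 275 and 300.5 in AKT/NRAS SCR and 304, 271 and 290.0 in AKT/NRAS siRNA. The AKT Cre/NRAS values were 159, 146 and 126 under SCR and 173, 148 and 152 under siRNA. For both genes every AKT Cre/NRAS sample lay below every AKT/NRAS sample, and *Lig4* had a log2 fold change of -1.03 ± 0.12 (SE), adjusted p = 5.15e-05 under SCR and -0.87 ± 0.084 (SE), adjusted p = 4.92e-05 under siRNA. *Xrcc4*, its binding partner, was lower by a smaller amount under siRNA (-0.19, adjusted p = 0.015) and did not pass under SCR (-0.17, adjusted p = 0.309).

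In damage signalling, the fork arm split between its kinases. *Atr* was lower in AKT Cre/NRAS, at -0.68 under SCR and -0.35 under siRNA (adjusted p = 0.000436 and 0.0102), and *Chek1*, the kinase it activates, was higher, by 0.92 and 0.32 (adjusted p = 0.00307 and 0.0317). *Chek1* ranged from 38.3 to 65.2 in AKT/NRAS and from 67.1 to 116 in AKT Cre/NRAS, without overlap. *H2afx*, the histone phosphorylated around breaks, was higher by 0.30 and 0.37 (adjusted p = 0.0101 and 0.0012), with a sign that turned to -0.12 under SCR when 5 reference genes set the scale. *Atm* and *Mdc1* were lower under SCR (-0.50 and -0.77) and did not pass under siRNA (0.081 and -0.091), and the *Atm* value under SCR turned to 0.0076 with the values as deposited. *Chek2*, the kinase downstream of ATM, did not pass in either (0.13 and -0.075).

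In excision and mismatch repair, *Xpa*, which verifies the lesion in nucleotide excision repair, was lower in AKT Cre/NRAS, with a log2 fold change of -0.63 ± 0.14 (SE), adjusted p = 0.00292 under SCR and -0.75 ± 0.055 (SE), adjusted p = 1.06e-05 under siRNA, and ranged from 502 to 584 in AKT/NRAS and from 283 to 395 in AKT Cre/NRAS. *Polb*, the gap-filling polymerase of base excision repair, was lower (-0.40 and -0.52), and so was *Ercc6*, of transcription-coupled repair, at -0.34 and -0.44 (adjusted p = 0.0293 and 0.000135 for *Polb*, 0.0191 and 0.00317 for *Ercc6*). Under SCR both turned positive with the values as deposited (0.10 and 0.16), as did *Ercc6* on the median of the panel (0.012). *Nthl1*, a glycosylase for oxidised pyrimidines, was the member of these routes that was higher both times, by 0.62 ± 0.11 (SE), adjusted p = 0.000725 under SCR and 0.63 ± 0.11 (SE), adjusted p = 0.00162 under siRNA. *Msh6*, a subunit of the mismatch recognition complex, was lower at -0.81 and -0.22 (adjusted p = 0.00131 and 0.0363). *Ercc2* and *Xpc*, a helicase of TFIIH and the damage sensor, were lower under SCR (-0.53 and -0.37) and did not pass under siRNA (-0.082 and 0.20), and the *Xpc* value under SCR turned to 0.13 with the values as deposited. *Ddb2*, another damage sensor, was higher under SCR (0.46, adjusted p = 0.00374) at 27.1 to 43.0 normalised counts, close to the floor.

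The counts between the lines depended on the scale under SCR more than under siRNA. Over 7 scalings the panel median moved from -0.62 to 0.25 under SCR and from -0.043 to 0.091 under siRNA, and the members higher and lower ran from 4 to 15 and from 3 to 18 under SCR and from 6 to 10 and from 8 to 17 under siRNA. Of the 26 and 21 members past the threshold, 19 and 21 kept their sign under all 7 scalings. Under all 7 scalings, 7 of the 26 members passed under SCR (*Fancg*, *Fancl*, *Ube2t*, *Brca1*, *Chek1*, *Prkdc* and *Mgmt*) and 13 of the 21 under siRNA (*Fanca*, *Fancg*, *Fancl*, *Ube2t*, *Brca1*, *Nbn*, *Nthl1*, *Xpa*, *Lig4*, *Prkdc*, *Mgmt*, *Polb* and *H2afx*). The AKT Cre/NRAS SCR libraries enter the SCR comparison alone, and without AKT Cre/NRAS SCR replicate 1, 2 or 3 it gave 29, 20 and 25 members past the threshold. Those fits gave 413 of 515, 369 of 512 and 409 of 510 genes. Under siRNA the lines also differed in the log2 ratio of *Rpl19* to *Polr2a*. It was 4.72 to 5.03 in AKT Cre/NRAS siRNA and 3.86 to 3.92 in AKT/NRAS siRNA. The part of that ratio in the line results was not tested.

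**Figure D3:**
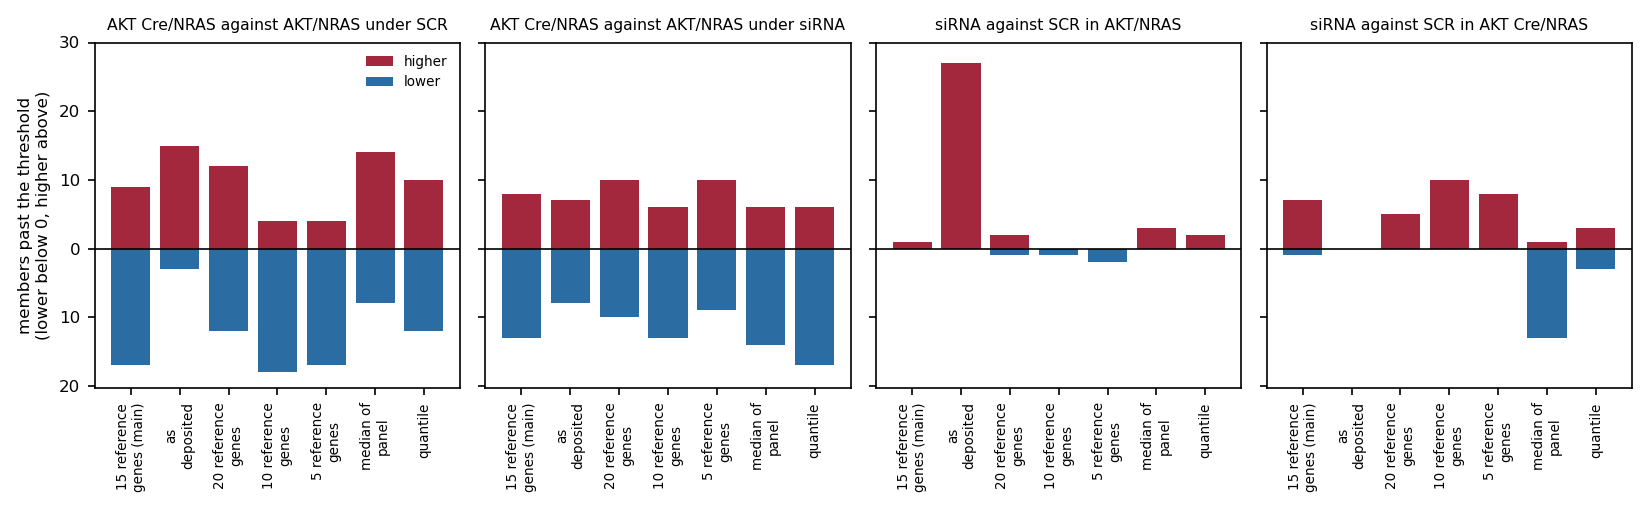
Members past the threshold (y axis, higher above 0 and lower below 0) in 4 comparisons under 7 ways of scaling the samples (x axis). Under siRNA the line comparison keeps members on both sides. The siRNA comparisons change with the scale. Up to 27 were higher in AKT/NRAS with the values as deposited (beside 287 of 507 genes). In AKT Cre/NRAS 13 were lower on the median of the panel (beside 136 of 510 genes).

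The siRNA comparison in AKT Cre/NRAS asked whether lowering *Dusp4* changes the repair genes where NRAS acts without the AKT transgene. Of 33 members tested, *Mdc1*, *Xpc*, *Atm*, *Rad50*, *Ercc2*, *Prkdc* and *Msh6* were higher after siRNA and *Ube2t* was lower, that is 7 and 1, beside 40.6% higher and 5.37% lower (45.9% together) of 503 genes. The members' share on the higher side was thus below that of the panel, and their median was -0.015 against 0.23 for all genes tested. In 13 of 33 members the groups did not overlap (9 higher, 4 lower), beside 60.0% of the panel (50.7% higher, 9.34% lower). With the replicate number as a block, 9 were higher and 4 lower, beside 223 and 40 of 503 genes. The added members were *Atr*, *Brca1*, *Chek1*, *Fancl* and *Mgmt*.

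*Mdc1*, the scaffold at breaks, measured 128, 96.7 and 90.3 under SCR and 191, 166 and 179 under siRNA, higher in every siRNA sample, with a log2 fold change of 0.77 ± 0.15 (SE), adjusted p = 0.0046. *Xpc* rose from 53.7, 56.4 and 39.0 to 71.4, 86.8 and 97.5 (0.77 ± 0.17 (SE), adjusted p = 0.00707). For both, the groups did not overlap and all 6 fits that left out 1 sample passed. *Atm*, the kinase that signals breaks, measured 173, 122 and 123 under SCR and 215, 226 and 218 under siRNA (0.67 ± 0.15 (SE), adjusted p = 0.00707). *Rad50* measured 317, 253 and 211 under SCR and 398, 446 and 373 under siRNA (0.65 ± 0.15 (SE), adjusted p = 0.00751). These also passed in all 6 such fits, and *Mdc1*, *Atm*, *Rad50* and *Nbn* sit at breaks together, of which *Nbn* did not pass (-0.18, adjusted p = 0.373).

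Smaller rises were those of *Ercc2* (0.50 ± 0.14 (SE), adjusted p = 0.0179), *Prkdc* (0.41 ± 0.14 (SE), adjusted p = 0.0358) and *Msh6* (0.41 ± 0.15 (SE), adjusted p = 0.0497). They passed in 3, 2 and 1 of the 6 fits with a sample left out, and the *Msh6* groups overlapped: 696, 596 and 438 under SCR and 806, 778 and 679.7 under siRNA. *Ube2t* fell from 212, 235 and 392 to 187, 192 and 173 (-0.55 ± 0.20 (SE), adjusted p = 0.0457). Its 3 siRNA samples all lay below its SCR samples, and the call passed in 1 of 6 such fits and 2 of 7 scalings. *Brca1* (0.34, adjusted p = 0.0534), *Brca2* (0.32), *Atr* (0.29), *Fancl* (-0.36), *Chek1* (-0.36) and *Mgmt* (-0.32) did not pass. *Fanca* and *Mutyh* were at the floor in all 6 samples on the main scale, while all 35 members were tested with the values as deposited and by quantiles. The other 18 members, between -0.33 (*Ddb2*) and 0.21 (*H2afx*), did not pass.

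The AKT Cre/NRAS SCR group is the one with the libraries that stand apart, with an *Rpl19* to *Polr2a* ratio of 5.48, 6.36 and 6.88 (log2) in replicates 1, 2 and 3, against 4.72 to 5.03 in the siRNA group. In the same replicates *Rad50* measured 317, 253 and 211 and *Fancl* 400.3, 518 and 641. The part of that ratio in the siRNA result was not tested. Without AKT Cre/NRAS SCR replicate 1, 11 members were higher and 9 lower, without replicate 2, 4 and 0, without replicate 3, 6 and 0, and without siRNA replicate 1, 2 or 3, 4, 5 and 4 were higher and 0 lower. Of 498 to 503 genes tested, the first 3 fits gave 243 higher and 54 lower, 127 and 4, and 192 and 26. The last 3 gave 94 and 5, 117 and 4, and 116 and 2. With the values as deposited 0 members passed in limma (4 at an unadjusted p under 0.05), on the median of the panel 1 was higher and 13 lower, and the sign of the 8 calls was the same in all 7 scalings. Over all genes tested, 0 were higher and 1 lower of 530 as deposited, and 32 and 136 of 510 on the median. With *Rpl19* left out of the reference genes, 5 members were higher and 2 lower, beside 187 and 35 of 504 genes.

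**Figure D4:**
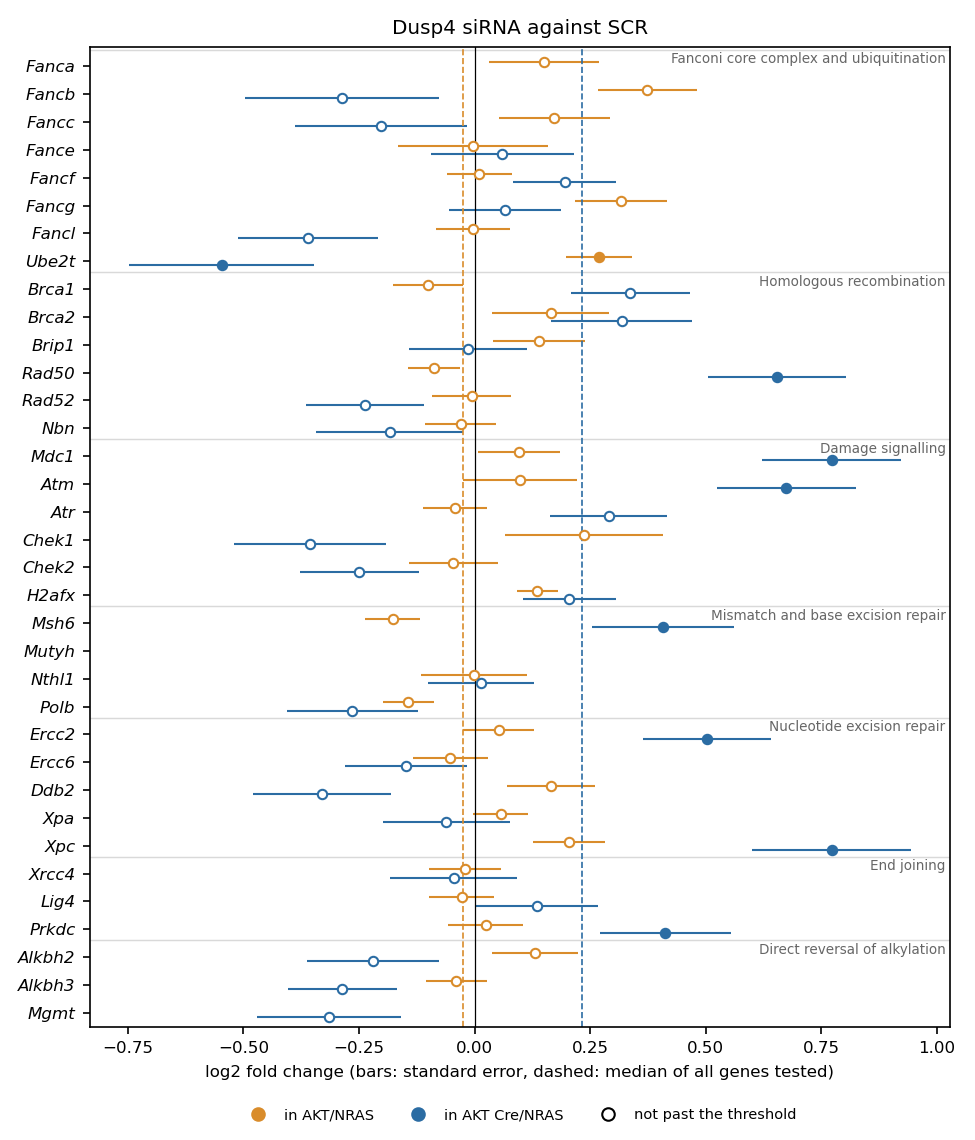
Log2 fold change after Dusp4 siRNA against SCR for each member (x axis), in AKT/NRAS in orange and in AKT Cre/NRAS in blue, with standard errors on 3 samples a group. Filled points passed an adjusted p of 0.05 and dashed lines mark the median of all genes tested (-0.025 and 0.23). Mdc1, Xpc, Atm and Rad50 lie to the right of the panel median in AKT Cre/NRAS and Ube2t far to its left.

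In AKT/NRAS the same siRNA, after which the fall of *Dusp4* was larger, gave 1 member past the threshold of 33 tested. It was *Ube2t*, higher at 88.9, 84.6 and 85.9 under SCR and 111, 101 and 102 under siRNA (0.27 ± 0.072 (SE), adjusted p = 0.0417), beside 5.44% higher and 11.9% lower (17.3% together) of 496 genes. The groups did not overlap for 7 members (5 higher, 2 lower), beside 34.7% of the panel (11.5% higher, 23.2% lower). *Ube2t* was among them, but the call was lost in each of the 6 fits without 1 sample. *Fancb* (0.37, adjusted p = 0.0511), *Fancg* (0.32, adjusted p = 0.0725), *H2afx* (0.14, adjusted p = 0.0743) and *Msh6* (-0.18, adjusted p = 0.08) came next. *Mgmt* and *Mutyh* were at the floor, and the other members lay between -0.14 (*Polb*) and 0.24 (*Chek1*). With the values as deposited, 27 of 34 members tested were higher, beside 287 of 507 genes, a scale on which the panel median was 0.30.

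Whether the lines responded differently was tested as the interaction, the siRNA response in AKT Cre/NRAS minus that in AKT/NRAS. It passed for 9 of 34 members, 7 on the higher side and 2 on the lower, beside 40.6% and 4.76% (45.3% together) of 525 genes, and the members' median was -0.11 against 0.25 for all genes tested. The count and its direction moved with the scale: 0 were higher and 4 lower with the values as deposited, 0 and 18 on the median of the panel, 2 and 7 by quantiles and 12 and 0 with 5 reference genes, and 0 members passed under all 7 scalings, although the 9 kept their sign. On the same 4 scales the panel gave 2 higher and 30 lower of 551, 50 and 151 of 524, 96 and 88 of 551, and 305 and 1 of 521. The 7 were *Rad50*, *Mdc1*, *Msh6*, *Atm*, *Xpc*, *Ercc2* and *Brca1*, and the 2 were *Ube2t* and *Ddb2*. By the Benjamini-Yekutieli adjustment that the methods name, 0 of the 9 passed (13 members were at an unadjusted p under 0.05 in limma), the lowest value being 0.0502 for *Rad50*.

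*Rad50* had the smallest p of the members for the interaction (0.74 ± 0.18 (SE), adjusted p = 0.00734). In AKT/NRAS it measured 379.6, 395 and 374 under SCR and 342, 365 and 373 under siRNA and did not pass (-0.089), while it was higher after siRNA in AKT Cre/NRAS. *Mdc1* followed (0.68 ± 0.18 (SE), adjusted p = 0.012), at 195, 166 and 173 in AKT/NRAS SCR and 200.1, 194 and 176 in AKT/NRAS siRNA. These 2 passed in all 12 fits without 1 sample. *Ube2t* rose in AKT/NRAS and fell in AKT Cre/NRAS (-0.82 ± 0.25 (SE), adjusted p = 0.0242), and passed in 10 of 12.

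*Brca1* (0.44 ± 0.14 (SE), adjusted p = 0.0283) and *Msh6* (0.59 ± 0.20 (SE), adjusted p = 0.0317) each passed in 6 of 12 such fits, with *Msh6* at 1025, 1006 and 949 in AKT/NRAS SCR and 953, 849 and 837 in AKT/NRAS siRNA. *Ddb2* (-0.50 ± 0.17 (SE), adjusted p = 0.0371) measured 27.1, 27.8 and 27.1 in AKT/NRAS SCR and 34.9, 30.8 and 27.1 in AKT/NRAS siRNA. The AKT Cre/NRAS values were 37.7, 43.0 and 33.4 under SCR and 35.7, 27.6 and 27.1 under siRNA. With 2 of 3 AKT/NRAS SCR samples at the floor and all others close to it, its values span 27.1 to 43.0. *Xpc* (0.57), *Atm* (0.58) and *Ercc2* (0.45) passed in 4, 3 and 2 of 12 (adjusted p = 0.038, 0.0419 and 0.0477). Within a library, the log2 ratio of *Ube2t* to *Mdc1* was 0.73 to 2.12 in AKT Cre/NRAS SCR and -0.050 to 0.21 in AKT Cre/NRAS siRNA, and -1.13 to -0.97 and -0.95 to -0.78 in AKT/NRAS SCR and siRNA. Leaving out AKT Cre/NRAS SCR replicate 1 gave 8 members on the higher and 10 on the lower side, beside 250 and 57 of 525 genes. Leaving out any of the others gave 3 to 7 members in all, beside 176 to 223 genes.

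**Figure D5:**
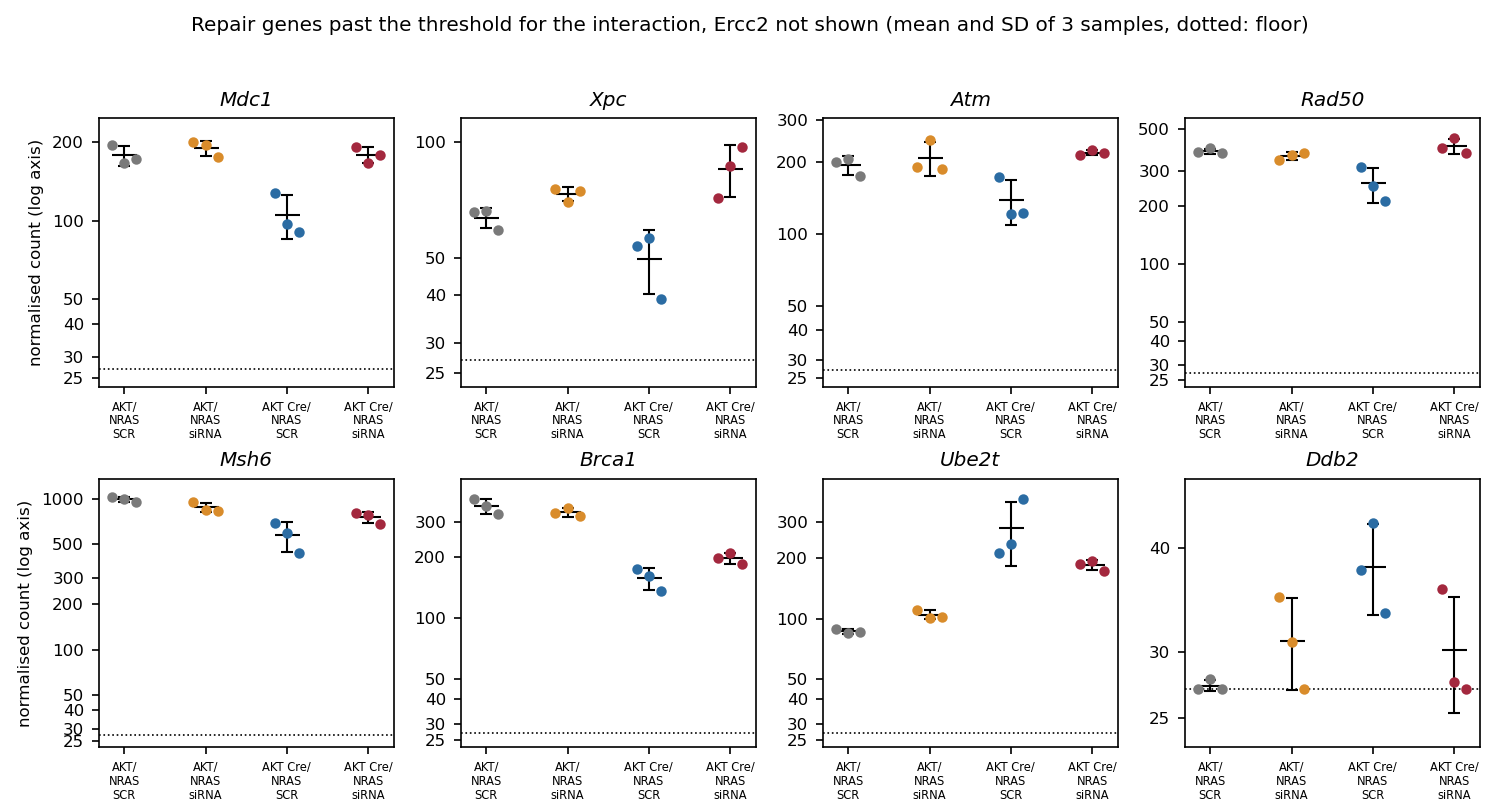
Normalised counts (log axis) of 8 of the 9 members past the threshold for the interaction, 1 point a sample, with the mean and SD of 3 samples and the floor of 27.1 as a dotted line. In Mdc1, Atm and Rad50 the AKT Cre/NRAS SCR samples lie below the other 3 groups, in Ube2t above them, and Ddb2 lies at or near the floor.

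The siRNA comparison in AKT Cre/NRAS, the interaction and the line comparison under SCR share the AKT Cre/NRAS SCR samples, so a level that is high or low there moves all of them. Side by side, *Mdc1* had -0.77 between the lines under SCR and 0.77 after siRNA, *Rad50* -0.57 and 0.65, *Atm* -0.50 and 0.67, *Xpc* -0.37 and 0.77, and *Ube2t* 1.63 and -0.55. Under siRNA, which involves none of these samples, the line difference was -0.091, 0.17, 0.081, 0.20 and 0.81 for the same 5 genes.

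Other genes of repair and replication on the panel give the setting of the members. Of 14 further repair genes measured, 6 of 13 tested were higher and 5 lower in AKT Cre/NRAS under SCR, and 6 and 3 under siRNA. Over all genes tested, 28.9% were higher and 48.0% lower under SCR, and 36.6% and 37.9% under siRNA. Those of smallest p included the cohesin subunits *Smc3* (0.74 ± 0.11, adjusted p = 0.000309 under SCR) and *Smc1a* (-0.63 ± 0.11, adjusted p = 0.000757 under SCR), and the flap nuclease *Fen1* (0.87 ± 0.14, adjusted p = 0.000505 under SCR). After siRNA in AKT Cre/NRAS, *Setd2*, a histone H3 methyltransferase (0.61 ± 0.10, adjusted p = 0.00329), *Smc1a* (0.65 ± 0.11, adjusted p = 0.00355) and *Smc3* (0.39 ± 0.11, adjusted p = 0.0196) were higher and 0 were lower. In that comparison 40.6% of the panel was higher and 5.37% lower. In AKT/NRAS, *Fen1* (0.36 ± 0.085, adjusted p = 0.0267) and *Rbx1* (0.25 ± 0.05, adjusted p = 0.0168) were higher.

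Of 13 replication fork genes, 7 of 11 tested were higher and 2 lower in AKT Cre/NRAS under SCR, with a median of 0.51 against -0.22 for the panel, and 6 and 2 of 12 under siRNA. The panel's shares were 28.9% higher and 48.0% lower under SCR, and 36.6% and 37.9% under siRNA. The clamp loader subunit *Rfc4* was higher under SCR (1.15 ± 0.16, adjusted p = 0.000191), and *Rpa3*, the smallest subunit of replication protein A, was lower under SCR (-1.68 ± 0.23, adjusted p = 0.00018) and under siRNA (-2.44 ± 0.044, adjusted p = 7.85e-09). After siRNA in AKT Cre/NRAS, 4 of 11 fell, among them *Rpa3* (-0.66 ± 0.21, adjusted p = 0.0298), *Rfc4* (-0.49 ± 0.16, adjusted p = 0.0306) and *Rfc3* (-0.52 ± 0.18, adjusted p = 0.0354), and *Mcm4*, of the replicative helicase, rose (0.36 ± 0.11, adjusted p = 0.0245). Of the panel, 5.37% fell and 40.6% rose there. In AKT/NRAS 4 of 11 rose and 0 fell, beside 5.44% and 11.9% of the panel. Those that rose included *Mcm7* (0.27 ± 0.042, adjusted p = 0.00816), *Mcm4* (0.27 ± 0.057, adjusted p = 0.0176) and *Rfc3* (0.32 ± 0.087, adjusted p = 0.0444). The interaction passed on the lower side for 4 of 12, *Rfc3*, *Rfc4*, *Rpa3* and *Pole2*, beside 4.76% of the panel.

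Among 14 p53 and checkpoint effectors tested, 4 were higher and 4 lower in AKT Cre/NRAS under SCR, and 6 and 3 under siRNA. Beside them stand 28.9% and 48.0% of the panel under SCR, and 36.6% and 37.9% under siRNA. *Gadd45b*, a stress gene, was lower both times (-2.68 ± 0.093, adjusted p = 4.43e-08 under SCR, -2.67 ± 0.13, adjusted p = 1.02e-06 under siRNA), and *Cdc25c*, the phosphatase that opens entry into mitosis, was higher (1.12 ± 0.11, adjusted p = 2.25e-05 and 1.19 ± 0.091, adjusted p = 1.28e-05). After siRNA, *Trp53* was higher and *Ddit3* and *Gadd45a* lower in both lines (*Trp53* 0.44 ± 0.12, adjusted p = 0.0177 in AKT Cre/NRAS and 0.19 ± 0.041, adjusted p = 0.019 in AKT/NRAS, *Ddit3* -0.49 ± 0.10, adjusted p = 0.00624 and -0.48 ± 0.10, adjusted p = 0.0188). *Cdkn1a*, the p53 target that halts the cycle, fell in AKT/NRAS (-0.36 ± 0.036, adjusted p = 0.00161). In AKT Cre/NRAS it rose (0.41 ± 0.15, adjusted p = 0.0425), a call that passed in 3 of 7 scalings. The *Cdkn1a* response differed between the lines (0.77 ± 0.19, adjusted p = 0.00809 for the interaction).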

How the data were processed

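RNA of 12 samples was hybridised to the nCounter panel, scanned and processed in nSolver by the authors. The deposited numbers are a signal for each gene. Dividing a sample by its positive-control factor (0.827 to 1.27) gave barcode counts, whole to within 0.05, and the lowest value is 20. The reference gene step that the methods name is not in them.

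Here geNorm over all 12 samples kept 15 of 20 reference genes, scaled values under 27.1 were set to that shared floor, and a gene was left out of a comparison if none of its samples exceeded that floor. The model on log2(value + 1) used limma 3.58.1 under R 4.3.3 (eBayes with trend, Benjamini-Hochberg over all genes tested, threshold 0.05). Fold changes are on that scale, which understates low genes. Only the compared groups entered a fit, and the interaction used all 12 samples. The genome build of the panel is not given in the sources used here, and the only positions printed are those of the RefSeq promoter windows. Fits were tested on simulated data. Figures used matplotlib 3.10.9 and Python 3.11.15.

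Members and lists were chosen with earlier results of these data known. All 35 members are named, with values per sample for the 5 largest changes past the threshold in each comparison, for genes at the floor in 1 group and above it in another, and for up to 6 of smallest p in the interaction. Up to 4 genes of smallest p were named from each further list, and results for some genes and markers are not reported here. The *Fancl* to *Fancg* and *Ube2t* to *Mdc1* ratios were chosen after their values were seen.

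Alternatives were 6 other scalings, no filter, a mean of at least 50, a pseudocount of 10, 1 fit over all 4 groups, the replicate number as a block, Benjamini-Yekutieli adjustment and leaving out each sample. After the data were seen, the reference genes less *Rpl19* were added. In AKT Cre/NRAS, deviations of SCR and siRNA samples of the same number correlated weakly across genes (0.19, 0.10 and 0.18). Between the lines under siRNA the values were 0.21, 0.037 and 0.17. In the other comparisons they lay between -0.070 and 0.041. Values this small cannot settle whether the numbers pair the samples, and the blocked counts stand beside the siRNA result in AKT Cre/NRAS. All other printed values come from the fits without the block. With 3 samples against 3, an exact permutation test cannot go below 0.1. SD measures the spread between samples of a group. SE is the standard error of a log2 fold change in limma, from a variance moderated over all genes tested. Low counts limit the precision near the floor.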

Additional observations from a re-analysis of the deposited data

Results flagged for a closer look

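The response to *Dusp4* siRNA differed between AKT Cre/NRAS and AKT/NRAS by the interaction test of limma in 9 members, given as the log2 response in AKT Cre/NRAS minus that in AKT/NRAS. It was 0.74 for *Rad50*, 0.68 for *Mdc1*, 0.59 for *Msh6*, 0.58 for *Atm*, 0.57 for *Xpc*, 0.45 for *Ercc2* and 0.44 for *Brca1*, and -0.82 for *Ube2t* and -0.50 for *Ddb2*. The AKT Cre/NRAS SCR samples, in which *Rpl19* exceeded *Polr2a* by 5.48 to 6.88 (log2) against 3.81 to 5.03 elsewhere, enter each of these values, and the part of that ratio was not tested. All 7 values above 0 lost the call with the values as deposited (0 members higher, 4 lower) and on the median of the panel (0 higher, 18 lower). The panel had 2 higher and 30 lower of 551 genes, and 50 and 151 of 524, on these scales. By the Benjamini-Yekutieli adjustment of the limma p, 0 of the 9 passed, with 13 members at an unadjusted p under 0.05. *Ube2t* is the member that passed in both lines with opposite signs (0.27 in AKT/NRAS and -0.55 in AKT Cre/NRAS). Groups of 3 are too small for a check of single samples that lie far out.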

How the results depend on the processing

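Among 65 results for single members past the threshold, the alternatives gave 1146 values, of which 874 kept direction and side of the threshold, 264 kept the direction only and 8 turned. Under SCR between the lines, *Atm* (0.0076), *Brca2* (0.081), *Ercc6* (0.16), *Polb* (0.10) and *Xpc* (0.13) turned with the values as deposited, *Alkbh3* (-0.11) and *H2afx* (-0.12) with 5 reference genes and *Ercc6* (0.012) on the panel median. The cause was not tested.

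For siRNA in AKT Cre/NRAS (8 members past), 0 passed with the values as deposited and without the filter (4 and 8 at an unadjusted p under 0.05 in limma), 5 with 20 reference genes, 14 on the panel median, 14 in 1 fit over all groups, 3 by Benjamini-Yekutieli adjustment, and 4 to 20 without 1 sample. Of the panel, 1, 56, 161, 168, 289 and 70 genes passed in the same order, and 99 to 297 without 1 sample. For siRNA in AKT/NRAS (1 past), 27 passed as deposited, 3 with 20 reference genes, 2 with 5, 3 on the panel median, 2 by quantiles, 2 at a mean of at least 50, 2 less *Rpl19*, 0 without the filter, in 1 fit or by Benjamini-Yekutieli adjustment (7, 1 and 7 at an unadjusted p under 0.05), and 0 to 1 without 1 sample. In the same order 290, 108, 110, 88, 85, 99, 88, 45, 19 and 10 genes of the panel passed, and 39 to 92 without 1 sample. For the interaction (9 past), 4 passed as deposited, 18 on the panel median, 2 without the filter, 0 by Benjamini-Yekutieli adjustment, and 3 to 18 without 1 sample. The panel had 32, 201, 184 and 101 genes past, and 176 to 307 without 1 sample. The line comparisons stayed within 1.5 times of 26 and 21 members, with 19 to 29 under SCR and 16 to 20 under siRNA without 1 sample, and by Benjamini-Yekutieli adjustment 18 and 14. Of the panel, 358 to 413 and 366 to 383 genes passed without 1 sample, and 340 and 333 by that adjustment.

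With the replicate number as a block, 13 members passed after siRNA in AKT Cre/NRAS, 1 in AKT/NRAS (lower, where *Ube2t* did not pass), 28 and 21 between the lines under SCR and siRNA, and 8 in the interaction, where *Ercc2* (adjusted p = 0.0638) and *Xpc* (0.0517) were lost and *Atr* was gained. In these blocked fits 263, 73, 397, 404 and 240 genes of the panel passed. The correlations of same-number samples do not settle whether the numbers pair the samples in any comparison. The one fit over all groups was not run for the interaction, which already uses them. Near the floor of 27.1, *Fanca*, *Fancb*, *Brip1* and *Ddb2* have values that the depth hardly separates.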
